A study of Bos indicus and Bos taurus with 17 samples.

Results

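The genes described here build, sialylate or fucosylate the glycans of milk, and their transcripts were measured in milk cells of cattle through lactation. They were chosen for their part in the synthesis of milk oligosaccharides and glycoproteins, and they were 10 of the 21631 distinct gene names in the deposited values. Each was found as a single entry under its own name, and none was listed at 0 in any group. The members comprised 5 sialyltransferases (ST3GAL1, ST3GAL4, ST3GAL5, ST3GAL6 and ST6GAL1), the core fucosyltransferase FUT8, the galactosyltransferases B4GALT5 and B4GALT6, and the sialic acid pathway enzymes GNE and CMAS.

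Sialic acid is made from UDP-N-acetylglucosamine in a route that GNE opens, and CMAS couples it to CMP, the form in which it enters the Golgi. There the sialyltransferases place it at the ends of glycan chains, the ST3GAL and ST6GAL enzymes at different positions of galactose, while FUT8 adds fucose to the innermost sugar of N-glycans. In the mammary gland such enzymes act on lactose, on secreted milk proteins and on the lipids of the fat globule membrane, and the same enzymes shape the surface of leukocytes, which also enter milk.

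RNA was sequenced from milk cells of Kashmiri cattle, a local breed, and Jersey cattle, a dairy breed, on the 15th (D15), the 90th (D90) and the 250th day (D250) after calving, with cells taken from milk by beads that carried an antibody to keratin 18. The labels gave 17 samples, 2 for Jersey D90 and 3 for each of the other 5 groups. The study's methods describe the same cows of each breed milked on all of these days, whereas the lactation numbers in the labels differed between stages, and the labels tie no sample to a cow. Every sample of a stage shared a calendar month, so stage cannot be told apart from month. The values were the authors' FPKM, fragments scaled to the length of the transcript and to the reads mapped, pooled to 1 value per gene and group. They hold no spread between cows and no read numbers, so no error, interval or test is given, and 1 cow could carry a group value. In these values the Kashmiri columns are named Local and the days are given as stages.

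The captured cells were checked against marker genes of epithelial cells and leukocytes. KRT18, the keratin used for the capture, had an FPKM of 51.3 at Kashmiri D15, 9.13 at D90 and 11.5 at D250, and of 33.7, 1.59 and 4.51 on the same days in Jersey. The summed FPKM of 14 epithelial markers was 5983, 734 and 2668 in Kashmiri and 2747, 104 and 1413 in Jersey. Both series of values were lowest at D90, where 13 of 14 epithelial markers were lower than at D15 in each breed by the limit defined below. Of all genes, 18.8% were lower there in Kashmiri and 16.9% in Jersey. For 10 T and NK cell markers the sum was 394, 1665 and 414 in Kashmiri and 301, 228 and 175 in Jersey. The 8 B cell markers summed to 17.2, 83.4 and 31.6 in Kashmiri and to 26.6, 12.3 and 9.37 in Jersey. Lymphocyte markers were thus highest at Kashmiri D90. Neutrophil markers, 10 of the 12 listed, summed to 195, 560 and 686 in Kashmiri and to 5155, 6531 and 14623 in Jersey, and 10 macrophage markers to 109, 483 and 491 in Kashmiri and to 1014, 2145 and 1852 in Jersey. No marker of these 5 lists was at 0 in any group. The labelled epithelial cells therefore carried leukocyte transcripts in every group, and fewer cells of a type and less RNA per cell cannot be told apart in these values.

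**Figure D1:**
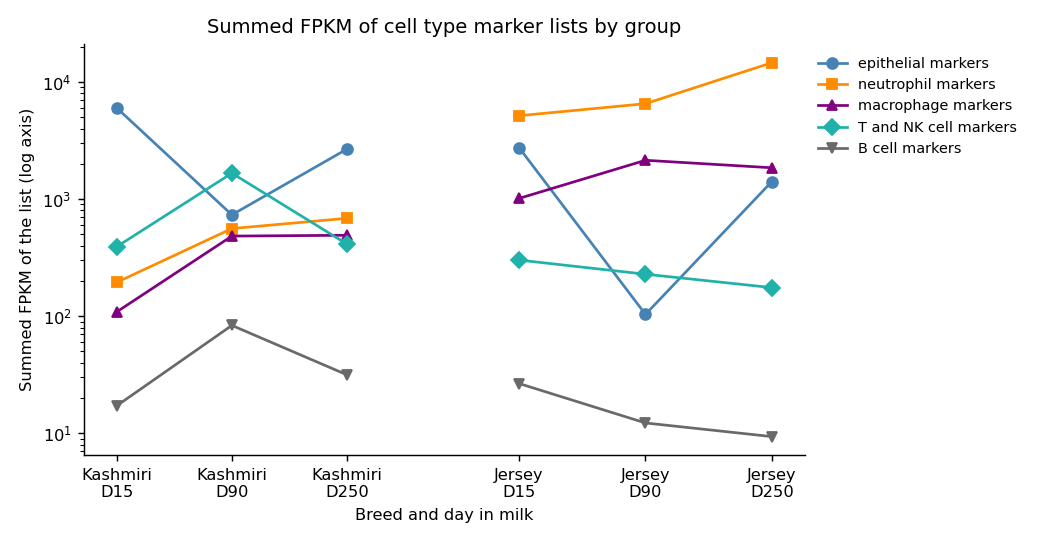
Summed FPKM (log axis) of 5 lists of cell type markers in the 6 groups of breed and day, 1 value per group with no error. T and NK cell markers peak at 1665 in Kashmiri D90, epithelial markers are lowest at 104 in Jersey D90, and neutrophil markers are higher in every Jersey group than in any Kashmiri group.

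The 10 genes were expressed at low to moderate levels. Their FPKM ran from 0.0855 for B4GALT6 at Kashmiri D15 to 35.8 for ST3GAL4 at Kashmiri D90. The median of the 10 was 5.83, 10.6 and 6.91 FPKM in Kashmiri on the 3 days, and 5.17, 6.52 and 8.35 FPKM in Jersey. For comparison, the median gene among those with at least 1 FPKM lay between 7.72 and 9.58 FPKM in the 6 groups. Within Kashmiri cattle 7 of the 10 were highest at D90, CMAS and GNE were highest at D15 and lowest at D90, and B4GALT6 was highest at D250. Jersey cattle were less uniform, with 5 genes highest at D90, 3 at D15 and 2 at D250. After rescaling each group to the same FPKM sum without the milk protein genes, 5 genes were highest at Kashmiri D90 and 5 at Kashmiri D250, while the Jersey numbers stayed at 5, 3 and 2.

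**Figure D2:**
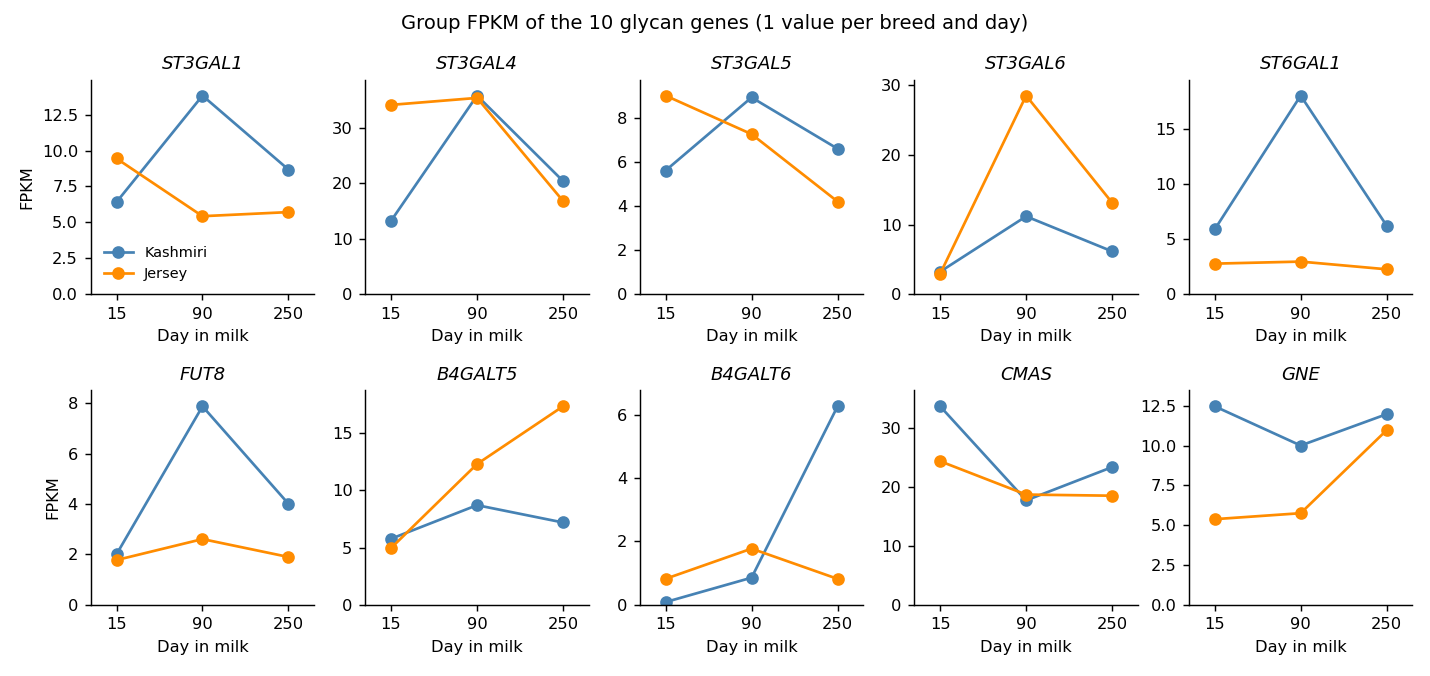
FPKM (vertical axis, linear from 0, a separate scale for each gene) of the 10 genes on the 3 days of sampling, by breed, 1 pooled value per point. ST6GAL1 and FUT8 peak at Kashmiri D90 (18.1 and 7.88 FPKM), ST3GAL6 peaks at Jersey D90 (28.5 FPKM), and B4GALT5 and B4GALT6 part at D250.

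The comparisons took the later day over the earlier day within a breed, and Jersey over Kashmiri at each day. A gene was counted as higher or lower when it reached 1 FPKM in either group and differed at least 2-fold on the FPKM + 1 scale. At Kashmiri D90 against D15, 5 of 9 members counted were higher (ST3GAL1, ST3GAL4, ST3GAL6, ST6GAL1 and FUT8) and 0 were lower, where 14.7% of all 11297 genes counted were higher and 18.8% lower. The median log2 ratio of the members was 1.00 and that of all genes -0.01. B4GALT6 was below 1 FPKM on both days and was not counted. Sialyltransferases made up 4 of the 5 genes past the limit, and the share of members that were higher was above that of all genes. The same number, 5, was higher after both rescalings, where 20.8% (FPKM sum) and 19.1% (upper quartile) of all genes were higher.

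From D90 to D250 in Kashmiri cattle, B4GALT6 alone was higher and ST6GAL1 alone lower, against 8.95% and 8.77% of all genes. Between Kashmiri D250 and D15 only B4GALT6 passed the limit, upwards, with 11.2% of all genes higher and 14.5% lower. That D250 against D15 comparison moved most with the scaling, as 7 of 10 members were higher after rescaling to the FPKM sum, beside 37.9% of all genes, and 2 of 10 after rescaling by the upper quartile, beside 17.3% of all genes. With the sum, the median over all genes went there from a log2 ratio of -0.04 to 0.77.

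Jersey cattle had fewer members past the limit between D15 and D90, namely ST3GAL6 and B4GALT5, both higher, with 12.8% of all genes higher and 16.9% lower. Jersey D250 against D90 had 2 members lower, ST3GAL4 and ST3GAL6, and 0 higher, where 4.22% of all genes were lower and 16.6% higher. At Jersey D250 against D15, ST3GAL6 and B4GALT5 were higher among 9 members counted, with 24.5% of all genes higher and 17.9% lower. A share of 2 in 9 members is near that background.

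Between the breeds at D15, ST3GAL4 was higher and GNE lower in Jersey, with 15.9% of all genes higher and 13.0% lower. Jersey over Kashmiri at D90 had ST3GAL6 higher and ST3GAL1, ST6GAL1 and FUT8 lower among 10 members, with 17.0% of all genes higher and 15.9% lower. After rescaling to the FPKM sum ST3GAL1 was under the limit there, and 1 member was higher and 2 lower, beside 22.8% and 11.9% of all genes. At D250 B4GALT5 was higher and ST6GAL1 and B4GALT6 were lower in Jersey, with 22.8% of all genes higher and 11.7% lower. After rescaling to the FPKM sum, where the median over all genes went from a log2 ratio of -0.10 to -0.75, 0 of 10 members were higher and 7 lower in that last comparison, beside 13.7% and 37.7% of all genes. After the upper quartile 0 were higher and 5 lower, beside 15.9% and 28.3% of all genes. CMAS and ST3GAL5 passed the limit in none of the 9 comparisons as deposited. Just inside the limit stood ST3GAL1 at Kashmiri D90 against D15 (log2 ratio 1.00) and ST3GAL4 at Jersey D250 against D90 (-1.03), and just outside it ST3GAL6 at D250 between the breeds (0.99) and ST3GAL4 at Jersey D250 against D15 (-0.98).

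**Figure D3:**
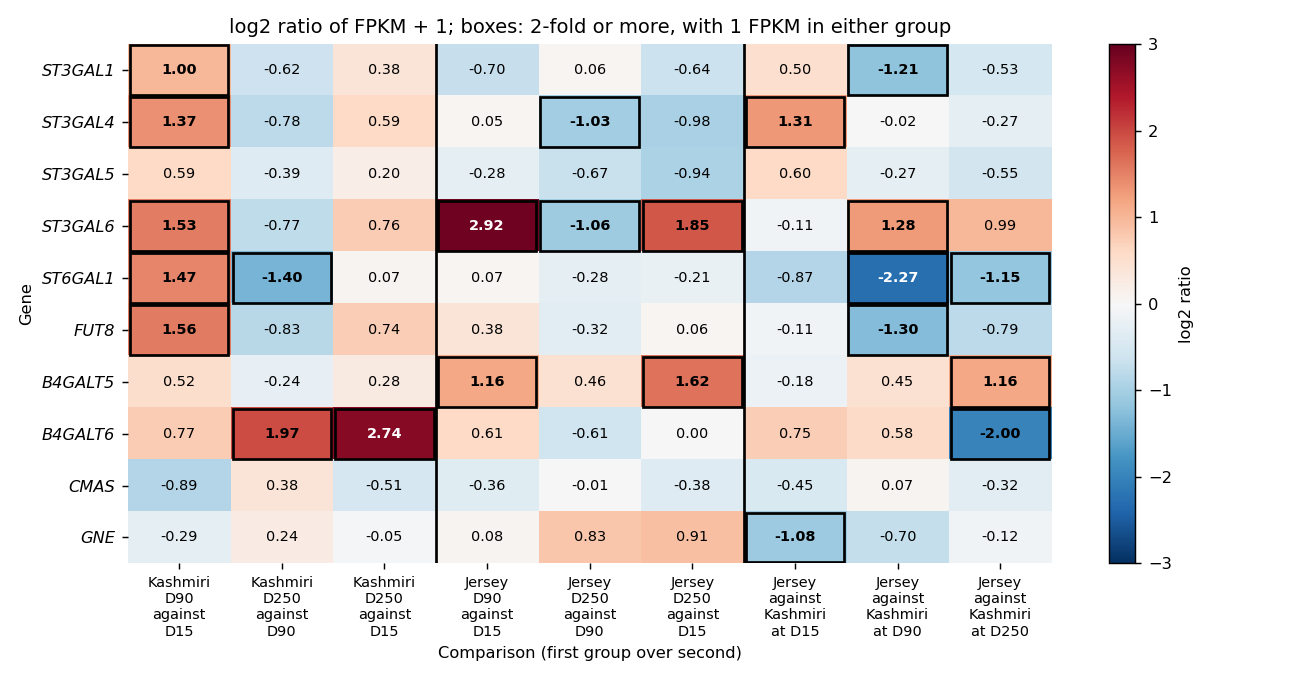
log2 ratio of FPKM + 1 for the 10 genes (rows) in the 9 comparisons (columns, first group over second), with the value in each cell, red for higher and blue for lower. Boxes mark values past the limit, of which Kashmiri D90 against D15 holds 5, while CMAS and ST3GAL5 have none.

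ST6GAL1, which transfers sialic acid to galactose at the ends of N-glycans and can form sialyllactose, had, at D90 and with the deposited scaling, the largest difference between the breeds on the FPKM + 1 scale among the 10 genes. After rescaling to the FPKM sum its log2 ratio at D90 was -1.99, smaller in size than the -2.60 of B4GALT6 at D250. Its FPKM was 5.89 at Kashmiri D15, 18.1 at D90 and 6.23 at D250, and 2.77, 2.96 and 2.26 at Jersey D15, D90 and D250. Every Kashmiri value was above every Jersey value, and Kashmiri D90 stood apart from the other 5 groups. On the log2 scale of FPKM + 1 the ratio of Jersey to Kashmiri was -0.87 on the first sampling day, then -2.27 and last -1.15. These 3 ratios kept their sign under both rescalings. The Kashmiri D90 value was 3.07-fold that of D15 in plain FPKM, whereas the Jersey values of the same days had a ratio of 1.07. T and NK cell markers (8 of 10 higher, 0 lower) and B cell markers (6 of 7 counted higher, 0 lower) moved the same way at Kashmiri D90 against D15, and in Jersey over Kashmiri at D90 they were lower in 8 of 10 and 5 of 7. Neutrophil markers (9 of 10 higher, 0 lower) and macrophage markers (6 of 8 counted higher, 0 lower) were also higher at Kashmiri D90 than at D15, but in Jersey over Kashmiri at D90 they were higher in 10 of 10 and 8 of 9. Of all genes, 14.7% were higher and 18.8% lower at Kashmiri D90 against D15. In Jersey over Kashmiri at D90 these shares were 17.0% and 15.9%. CD3E, a chain of the T cell receptor complex, had 146, 659 and 135 FPKM in Kashmiri and 65.5, 31.7 and 19.5 FPKM in Jersey, and CD79A, of the B cell receptor, had 8.03, 42.5 and 9.77 FPKM in Kashmiri and 6.93, 4.22 and 2.22 FPKM in Jersey. IL7R, of the same list as CD3E, had 13.7, 58.8 and 41.6 FPKM in Kashmiri (named after its values were seen). In Jersey IL7R had 20.0, 57.2 and 74.5 FPKM. The part of these cells in the ST6GAL1 values was not tested.

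ST3GAL6, which sialylates N-acetyllactosamine chains, had the largest ratio of any sialyltransferase member between days. The FPKM was 3.22, 11.2 and 6.15 in Kashmiri cattle at D15, D90 and D250, and 2.91, 28.5 and 13.1 in Jersey cattle. Both breeds had the lowest value at D15 and the highest at D90, with Jersey D90 above all other groups. The D90 against D15 log2 ratio (FPKM + 1) was 1.53 in Kashmiri and 2.92 in Jersey, where the plain fold was 9.80. At D15 the breeds had a log2 ratio of -0.11, whose sign turned to 0.20 after rescaling to the FPKM sum. The breed ratio was 1.28 on the second sampling day and 0.99 on the last, and the latter was 0.29 after rescaling to the FPKM sum. At D90 against D15 the macrophage markers were higher in 6 of 8 counted and lower in 0 in Kashmiri. In Jersey they were higher in 3 of 9 (CD68, MRC1 and MSR1) and lower in 2 (C1QA and C1QC). Neutrophil, T and NK cell and B cell markers were higher in 9 of 10, 8 of 10 and 6 of 7 in Kashmiri, with 0 lower. In Jersey they were higher in 3 of 10, 1 of 10 and 0 of 6, and lower in 0, 6 and 1. Of all genes, 14.7% were higher and 18.8% lower in Kashmiri, and 12.8% and 16.9% in Jersey. CD68 had 169, 1211 and 996 FPKM in Jersey, whereas C1QA, a chain of complement C1q, had 145, 60.3 and 12.01 FPKM. The part of these cells in the ST3GAL6 values was not tested.

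ST3GAL4, another enzyme that sialylates N-acetyllactosamine, was the most abundant of the 5 sialyltransferase members in every group. It had 13.2, 35.8 and 20.4 FPKM in Kashmiri and 34.2, 35.4 and 16.8 FPKM in Jersey. Kashmiri D90 and the earlier 2 Jersey days thus lay near each other, and the other 3 groups were lower. Jersey over Kashmiri had a log2 ratio of 1.31 at D15 and -0.02 at D90, the latter turning to 0.32 after rescaling to the FPKM sum. Between D90 and D250 the ratio was -0.78 in Kashmiri and -1.03 in Jersey.

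ST3GAL1 acts chiefly on the core of O-glycans, and ST3GAL5 makes GM3, the ganglioside from which more complex gangliosides are built. ST3GAL1 had 6.41, 13.8 and 8.68 FPKM in Kashmiri and 9.45, 5.43 and 5.71 FPKM in Jersey, so the day of the highest value was D90 in Kashmiri and D15 in Jersey. Its D90 against D15 log2 ratio was 1.00 in Kashmiri and -0.70 in Jersey, and it kept these signs under both rescalings. ST3GAL5 had 5.63, 8.96 and 6.62 FPKM in Kashmiri and 9.04, 7.28 and 4.22 FPKM in Jersey. Its values spanned 2.14-fold over the 6 groups, less than those of the other 4 sialyltransferases. The largest log2 ratio of ST3GAL5 was -0.94, at Jersey D250 against D15.

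The sum of the 5 sialyltransferase members alone was 34.4, 87.9 and 48.1 FPKM in Kashmiri and 58.3, 79.6 and 42.1 FPKM in Jersey. It was highest at D90 in both breeds as deposited and after rescaling to the FPKM sum. Their shares in that sum do not depend on the scaling between groups. ST6GAL1 made up 17.1%, 20.6% and 13.0% of it in Kashmiri and 4.75%, 3.72% and 5.36% in Jersey, so the lowest Kashmiri share was above the highest Jersey share. ST3GAL6 made up 9.38%, 12.7% and 12.8% in Kashmiri, and 4.99%, 35.8% and 31.2% in Jersey. The Jersey share of ST3GAL6 was thus below the Kashmiri share at D15 and above it on the later days. ST3GAL4 held 38.5% to 42.4% in Kashmiri and 58.6%, 44.5% and 39.9% in Jersey. ST3GAL1 was at 6.82% in Jersey D90 and between 13.6% and 18.7% elsewhere. The ratio of ST6GAL1 to the sum of the 4 ST3GAL members was 0.207, 0.259 and 0.149 in Kashmiri and 0.0499, 0.0386 and 0.0566 in Jersey.

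**Figure D4:**
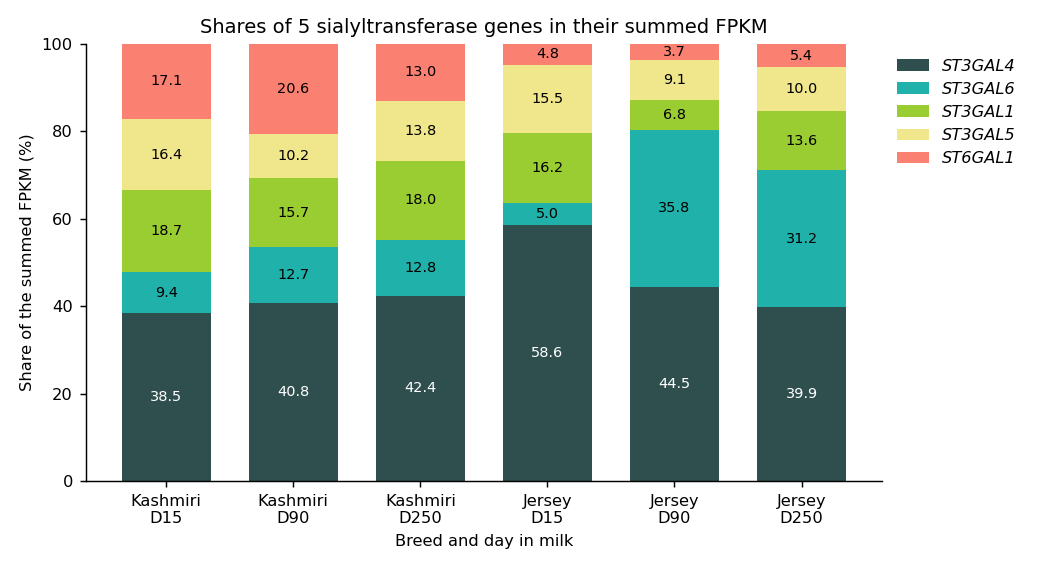
Share (%, vertical axis) of 5 sialyltransferase genes in their summed FPKM for the 6 groups of breed and day, 1 stacked bar per group. ST6GAL1 holds 13.0% to 20.6% in the Kashmiri bars and 3.72% to 5.36% in the Jersey bars, and ST3GAL6 holds 35.8% at Jersey D90.

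Among 15 other sialyltransferases listed, 14 were found, and 5 or 6 entries were counted in each comparison. At Jersey D250 against D15, 3 of the 5 counted were higher and 0 lower, beside 24.5% and 17.9% of all genes. The 3 were ST3GAL3, ST8SIA4 and a joined entry, while ST3GAL2 and ST6GALNAC2 had their lowest Jersey values at D250, at 2.32 and 6.13 FPKM (ST8SIA4, ST3GAL2 and ST6GALNAC2 were named after their values were seen). The joined entry, of ST6GALNAC4 and ST6GALNAC6, enzymes that sialylate N-acetylgalactosamine of O-glycans and glycolipids and cannot be told apart here, had 14.5, 23.3 and 18.0 FPKM in Kashmiri and 97.9, 104 and 331 FPKM in Jersey. ST3GAL3 had 3.08, 9.15 and 2.69 FPKM in Kashmiri and 12.7, 18.0 and 90.5 FPKM in Jersey, a log2 ratio of 4.63 between the breeds at D250. All Jersey values of both entries were above all Kashmiri values. In Jersey over Kashmiri at D250 3 of the 5 counted were higher and 0 lower, and of the 5 members 0 were higher and 1 lower, beside 22.8% and 11.7% of all genes. A count of 1 in 5 members lower is near that background. The 5 members held 51.05%, 60.9% and 55.0% of the summed FPKM of all sialyltransferases found in Kashmiri, and 31.4%, 34.7% and 8.25% in Jersey. That larger sum was 67.3, 144 and 87.5 FPKM in Kashmiri and 186, 230 and 511 FPKM in Jersey. In Jersey it was thus highest at D250, the day on which the sum of the 5 members was lowest. Neutrophil markers were higher in Jersey in 10 of 10 at each day and highest at Jersey D250, where CSF3R, the receptor of granulocyte colony-stimulating factor, had 2549 FPKM against 57.2 FPKM at Kashmiri D250 (its entry also carries an Ensembl identifier). Macrophage markers were higher in Jersey in 8, 8 and 4 of 9 counted at D15, D90 and D250, and lower in 0, 0 and 2. Epithelial markers were lower in 5, 10 and 12 of 14, and higher in 2, 0 and 0. Of all genes, 15.9%, 17.0% and 22.8% were higher in Jersey on these days, and 13.0%, 15.9% and 11.7% lower. The part of these cells in the values of these enzymes was not tested. ST8SIA2, ST8SIA3 and ST8SIA6 were listed at 0 in all groups (these 3 were chosen for naming after their values were seen).

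FUT8 makes the core fucose of N-glycans. Its FPKM was 2.01, 7.88 and 4.01 in Kashmiri and 1.78, 2.61 and 1.90 in Jersey. The breeds lay close at D15, and the Kashmiri values were above those of Jersey at D90 and D250. On the log2 scale of FPKM + 1, D90 against D15 gave 1.56 in Kashmiri and 0.38 in Jersey, and Jersey against Kashmiri gave -0.11, -1.30 and -0.79 from the first day to the last. The D15 value turned to 0.15 after rescaling to the FPKM sum, whereas those of D90 and D250 kept their sign under both rescalings. As with ST6GAL1, the Kashmiri D90 value coincided with the highest sums of T and NK cell markers (1665 FPKM) and B cell markers (83.4 FPKM), and neutrophil and macrophage markers were above their Kashmiri D15 sums there (560 and 483 FPKM). The part of these cells was not tested.

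Of 7 genes listed for the supply of GDP-fucose, the donor of FUT8, 4 were found. At Kashmiri D90 against D15 3 of 4 were lower and 0 higher, where 18.8% of all genes were lower. They were TSTA3, SLC35C1 and FUK (fucose kinase, named after its values were seen). In Jersey 2 of 3 counted were lower and 0 higher, where 16.9% of all genes were lower. TSTA3, the enzyme of the last step to GDP-fucose, had 331, 49.7 and 110 FPKM in Kashmiri and 116, 21.0 and 39.8 FPKM in Jersey. SLC35C1, the GDP-fucose transporter of the Golgi, had 21.9, 5.01 and 9.79 FPKM in Kashmiri and 13.2, 3.49 and 3.995 FPKM in Jersey. Both were highest at D15 and lowest at D90 in each breed, as was the sum of epithelial markers at Kashmiri D90 (734 FPKM) and Jersey D90 (104 FPKM), whose part was not tested. The D90 against D15 log2 ratio of TSTA3 was -2.71 in Kashmiri and -2.41 in Jersey, against 1.56 and 0.38 for FUT8.

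Among the other fucosyltransferases 9 of 11 were found and 5 were counted in each comparison. None of those 5 passed the limit at D90 against D15 in either breed. Of all genes, 14.7% were higher and 18.8% lower there in Kashmiri, and 12.8% and 16.9% in Jersey. In Jersey over Kashmiri, FUT4 and FUT7 were higher at D15 and FUT7 at D90, beside 15.9% and 17.0% of all genes. POFUT2 was lower at Kashmiri D250 against D90 and against D15, beside 8.77% and 14.5%. At Jersey D250 against D15 FUT7 and POFUT2 were lower, beside 17.9%. FUT7, which completes the sialyl Lewis x structure that selectins bind on leukocytes, had 1.44, 1.33 and 0.71 FPKM in Kashmiri and 8.69, 4.33 and 1.90 FPKM in Jersey, a log2 ratio of 1.99 between the breeds at D15. FUT4 had 0.826, 1.68 and 1.40 FPKM in Kashmiri and 5.37, 4.27 and 3.58 FPKM in Jersey (named after its values were seen). POFUT2, which places fucose on thrombospondin repeats, had 50.0, 38.9 and 16.5 FPKM in Kashmiri and 36.9, 19.9 and 17.4 FPKM in Jersey. The entry of FUT11, at 23.4 to 37.8 FPKM, is joined with SEC24C and cannot be read for FUT11 alone. FUT1 and FUT2, the enzymes of the fucosylated H antigen, did not exceed 0.0232 and 0.219 FPKM in any group (both named after their values were seen).

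B4GALT5 and B4GALT6 both make lactosylceramide, the step before GM3. B4GALT5 had 5.77, 8.71 and 7.20 FPKM in Kashmiri and 4.96, 12.3 and 17.4 FPKM in Jersey. B4GALT6 had 0.0855, 0.855 and 6.26 FPKM in Kashmiri and 0.819, 1.77 and 0.817 FPKM in Jersey. At D250 the breeds stood opposite for the pair, with B4GALT5 higher in Jersey and B4GALT6 higher in Kashmiri. B4GALT6 held 1.46%, 8.94% and 46.5% of the FPKM of the pair in Kashmiri and 14.2%, 12.6% and 4.497% in Jersey. Its D250 against D90 log2 ratio was 1.97 in Kashmiri and -0.61 in Jersey, and the signs held under both rescalings. The breed log2 ratio at D250 was 1.16 for B4GALT5 and -2.00 for B4GALT6, and after rescaling to the FPKM sum these were 0.45 and -2.60, so that B4GALT5 was then under the limit. With a value of 0.0855 FPKM at Kashmiri D15, the plain fold of B4GALT6 depends on a level near 0, while the share of the pair at D250 rests on values above 0.8 FPKM. The paper's own test called B4GALT6 differentially expressed between D15 and D250 in Kashmiri cattle, among the genes of highest fold change. The plain log2 ratio of D250 against D15 was 6.19 in the values used here.

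Around the pair, UGCG, which makes the glucosylceramide that they extend, had 3.85, 7.003 and 12.3 FPKM in Kashmiri and 4.33, 10.6 and 54.3 FPKM in Jersey. It was highest at D250 in both breeds, and D250 against D15 gave 1.45 (Kashmiri) and 3.38 (Jersey) on the log2 scale. B3GALT4, which extends gangliosides, had 14.2, 6.86 and 4.63 FPKM in Kashmiri and 13.0, 4.63 and 3.21 FPKM in Jersey. Of the 6 glycolipid genes listed, all found, 3 or 4 were counted in each comparison. At Jersey D250 against D15, UGCG was higher and B3GALT4 lower, and ST3GAL5 had the log2 ratio of -0.94 given above. The glycolipid route thus held genes at their highest and at their lowest Jersey value on the same day.

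B4GALT1, the galactosyltransferase that joins alpha-lactalbumin to make lactose, had 112, 52.0 and 96.7 FPKM in Kashmiri and 37.6, 53.5 and 175 FPKM in Jersey, above B4GALT5 and B4GALT6 in every group. Its D250 against D15 log2 ratio as deposited was -0.21 in Kashmiri and 2.19 in Jersey. The B4GALT1 ratios were not computed after rescaling, so the Kashmiri sign is tied to the deposited scaling. With the FPKM sum, the Kashmiri median over all genes went in that comparison from -0.04 to 0.77. B4GALT2 had 12.02, 9.05 and 6.20 FPKM in Kashmiri and 18.4, 11.1 and 6.74 FPKM in Jersey. Among the 5 other galactosyltransferases of this family 1 was higher and 2 were lower at Jersey D250 against D15, beside 24.5% and 17.9% of all genes. At Kashmiri D250 against D15 0 of 5 passed the limit, beside 11.2% of all genes higher and 14.5% lower.

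CMAS had the narrowest span of the 10 genes over the 6 groups as deposited, while GNE spanned 2.32-fold, more than ST3GAL5 (2.14-fold). CMAS had 33.7, 17.7 and 23.4 FPKM in Kashmiri and 24.4, 18.7 and 18.5 FPKM in Jersey, and its highest value was 1.90-fold its lowest. GNE had 12.5, 10.01 and 11.99 FPKM in Kashmiri and 5.38, 5.76 and 10.98 FPKM in Jersey. The Jersey values of GNE at D15 and D90 were below the other 4 groups, which lay between 10.01 and 12.5 FPKM. For GNE the breed log2 ratio was -1.08, -0.70 and -0.12 from the first to the last day, and the D15 value was -0.70 after rescaling to the FPKM sum, under the limit. The ratio of CMAS to GNE, which no scaling moves, was 2.70, 1.77 and 1.95 in Kashmiri and 4.52, 3.25 and 1.69 in Jersey.

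In the rest of the sialic acid supply 5 of 6 genes were found. NANS, which condenses the sugar with phosphoenolpyruvate in the step between GNE and CMAS, had 184, 65.7 and 89.1 FPKM in Kashmiri and 101, 38.7 and 41.7 FPKM in Jersey. Its D90 against D15 log2 ratio was -1.47 in Kashmiri and -1.37 in Jersey, beside -0.89 and -0.36 for CMAS and -0.29 and 0.08 for GNE. SLC35A1, the CMP-sialic acid transporter of the Golgi (named after its values were seen), had 1.404, 4.01 and 5.39 FPKM in Kashmiri and 2.101, 5.76 and 3.71 FPKM in Jersey, lowest at D15 in both breeds. The entry of RENBP, at 75.5 to 267 FPKM, is joined with NAA10 and cannot be read for RENBP alone. At Kashmiri D90 against D15 2 of 5 listed genes were higher (SLC35A1 and NPL) and 1 lower (NANS). Of all genes, 14.7% were higher and 18.8% lower there. NPL is a sialic acid lyase and so not a step of supply (named after its values were seen). It had 0.280, 2.48 and 3.92 FPKM in Kashmiri and 6.45, 6.69 and 2.51 FPKM in Jersey. At Jersey D90 against D15 1 was higher (SLC35A1) and 1 lower (NANS), beside 12.8% and 16.9% of all genes.

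**Figure D5:**
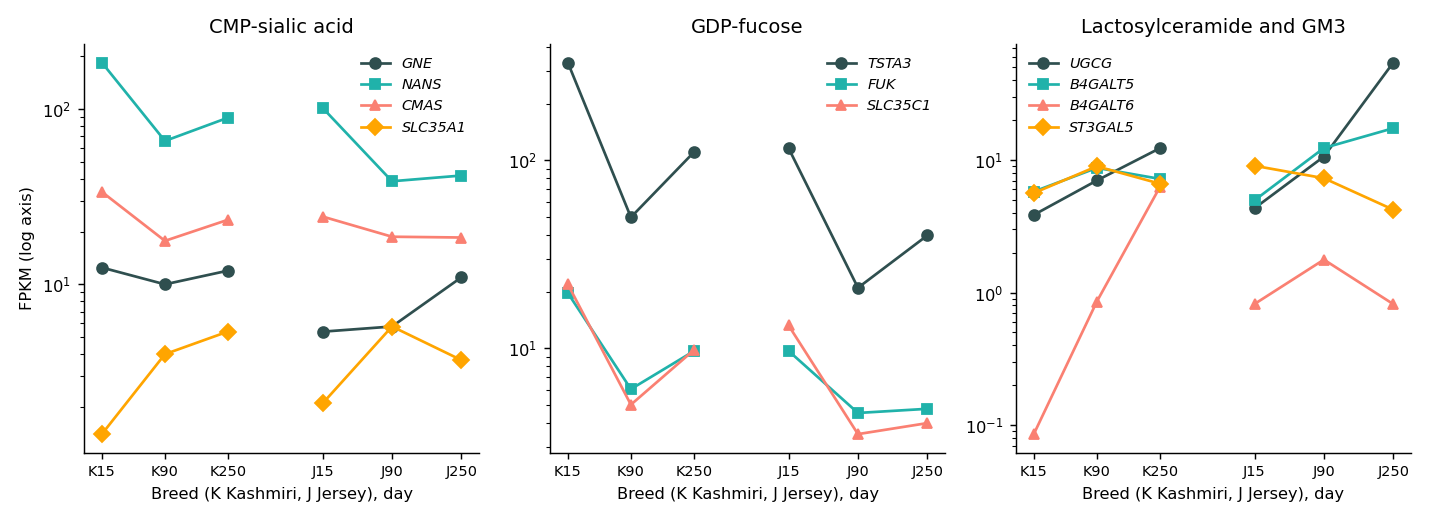
FPKM (log axis) of genes of CMP-sialic acid supply, GDP-fucose supply and the route to GM3 in the 6 groups (K Kashmiri, J Jersey, with the day), 1 pooled value per point. TSTA3 and SLC35C1 are lowest at D90 in both breeds, and B4GALT6 reaches 6.26 FPKM at Kashmiri D250 while UGCG reaches 54.3 FPKM at Jersey D250.

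The breeds can be set side by side for the change between days, with no test of the difference. For D90 against D15 the log2 ratio of ST6GAL1 was 1.47 in Kashmiri and 0.07 in Jersey, that of ST3GAL4 1.37 and 0.05, and that of ST3GAL6 1.53 and 2.92. ST3GAL6 was therefore the only member past the limit upwards in both breeds over that interval. For D250 against D15 B4GALT5 had 0.28 in Kashmiri and 1.62 in Jersey, and GNE had -0.05 and 0.91. The Kashmiri GNE value turned to 0.84 after rescaling to the FPKM sum, and so no longer differed in sign from Jersey. No member was past the limit in opposite directions in the 2 breeds over the same interval.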

How the data were processed

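Epithelial cells captured from milk were sequenced in 17 labelled samples, placed in 6 groups of breed and stage by the labels. The authors trimmed reads with Trimmomatic, aligned them with Bowtie2 (version 2, with build UMD3.1, in the submitters' processing notes) and TopHat, and used Cufflinks for assembly and Cuffdiff for quantities. The deposited values are FPKM, 1 per gene and group, in 61264 entries, of which 25121 carry a name, and they scale with the mapped reads of a group, so that a few abundant transcripts can move all others. All value columns were used. The columns name Kashmiri cattle Local and the stages 1, 2 and 3, which were taken as D15, D90 and D250. Where entries shared a name, that of highest mean FPKM was kept, and joined names were split at the comma. Depth per sample was not analysed here.

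Ratios had a pseudocount of 1 FPKM, a minimum of 1 FPKM (either group sufficed) and a log2 limit of 1 in absolute size. With no replicates, no p-value was computed. The members and the 13 lists of related genes were chosen with earlier results of these data known. The results of 1 of these lists, on receptors, are not reported here. From each list, the 2 genes with the highest mean and the gene with the largest ratio at 1 FPKM or more in both groups were named, and others are marked as named after their values were seen. The 6 alternatives were a pseudocount of 0.1 FPKM, a minimum of 0.01 FPKM, an absolute log2 limit of 2, rescaling to the FPKM sum without the milk protein genes, rescaling by the upper quartile, and summing entries of 1 name. The code was tested on simulated data and ran under Python 3.11.15 with matplotlib 3.10.9, pandas 2.3.3 and numpy 2.4.6. Gene sequences and coordinates were not used here.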

Additional observations from a re-analysis of the deposited data

How the results depend on the processing

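The number of members past the limit was 5 at Kashmiri D90 against D15, 2 at D250 against D90 and 1 at D250 against D15, 2 in each of the 3 Jersey comparisons between days, and 2, 4 and 3 for Jersey over Kashmiri at D15, D90 and D250. With an absolute log2 limit of 2, the number was 0 at Kashmiri D90 against D15, Kashmiri D250 against D90, Jersey D250 against D90, Jersey D250 against D15 and between the breeds at D15 and D250, and 1 at Jersey D90 against D15 and between the breeds at D90, since a stricter limit counts fewer genes. After rescaling to the FPKM sum it was 7 at Kashmiri D250 against D15, 4 at Jersey D250 against D15 and 3 at Jersey D250 against D90. Between the breeds it was then 1 at D15 and 7 at D250. At D90 the breeds had 1 higher and 2 lower, with ST3GAL1 under the limit. Kashmiri D250 against D90 had 2 higher and 0 lower in place of 1 and 1. The upper quartile gave 2, 4 and 5 for Kashmiri D250 against D15, Jersey D250 against D15 and the breeds at D250. A pseudocount of 0.1 FPKM gave 5 at Jersey D250 against D15 and 5 between the breeds at D250. It gave 3 at Jersey D90 against D15 and 3 at Jersey D250 against D90. Between the breeds at D15 it gave 1 higher and 2 lower. A minimum of 0.01 FPKM and the sum of entries with the same name changed none of these numbers.

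Of 90 log2 ratios of members, 0 changed sign with a pseudocount of 0.1 FPKM, 4 by the upper quartile and 11 by the FPKM sum, none of them past the limit as deposited. The summed FPKM of a group ran from 533249 at Kashmiri D250 to 1023152 at Kashmiri D15, so levels across days and breeds depend on the scaling, whereas shares and ratios within a group do not. No paired analysis was possible because the values hold 1 pooled FPKM per group, and leaving out each replicate was not run for the same reason.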

Other observations

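Genes that build the chains on which the sialyltransferases act were also counted, on the values as deposited. Of all genes, 14.7% were higher and 18.8% lower at Kashmiri D90 against D15, 24.5% and 17.9% at Jersey D250 against D15, and 22.8% and 11.7% in Jersey over Kashmiri at D250, and the counts of each list stand beside these shares. Of 13 genes of O-glycan cores and lactosamine 11 were found, and at Kashmiri D90 against D15 5 of 9 counted were higher and 0 lower, at Jersey D250 against D15 5 of 8 were higher and 0 lower, and Jersey over Kashmiri at D250 had 3 of 9 higher and 0 lower. GALNT1, which starts O-glycans, had 4.17, 10.02 and 10.6 FPKM in Kashmiri and 12.7, 23.3 and 30.8 FPKM in Jersey. B3GNT5, which starts lacto-series glycolipids, had 0.554, 2.13 and 2.29 FPKM in Kashmiri and 1.88, 6.27 and 29.6 FPKM in Jersey. For N-glycan branching all 10 genes were found, with 1 of 9 higher and 0 lower at Kashmiri D90 against D15 and 3 higher and 1 lower at Jersey D250 against D15. MGAT4B had 55.8, 78.0 and 30.1 FPKM in Kashmiri and 65.3, 31.1 and 11.5 FPKM in Jersey, and MGAT5 had 8.19, 22.4 and 10.9 FPKM in Kashmiri and 19.9, 22.7 and 50.4 FPKM in Jersey. In the supply of UDP-galactose and UDP-N-acetylglucosamine, 0 of 9 genes were higher and 3 lower at Kashmiri D90 against D15, and 2 of 10 were higher and 3 lower at Jersey D250 against D15. UGP2 had 190, 49.7 and 114 FPKM in Kashmiri and 56.1, 91.3 and 307 FPKM in Jersey, UAP1 had 29.8, 22.7 and 45.3 FPKM against 32.7, 79.9 and 125 FPKM, and GALK1 14.0, 22.3 and 14.7 FPKM against 81.5, 48.3 and 26.3 FPKM.

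Among the sialidase and fucosidase genes, only CTSA and the sialidase NEU1 passed the limit between the breeds on the deposited values, both higher in Jersey. The fucosidases FUCA1 and FUCA2 did not pass it on any day (NEU1, FUCA1 and FUCA2 were named after their values were seen). Of 7 sialidase and fucosidase genes, 5 were counted in each comparison, and 2 were higher and 0 lower in Jersey at each day, where 15.9%, 17.0% and 22.8% of all genes were higher at D15, D90 and D250. CTSA, the protective protein of the lysosomal sialidase, had 18.0, 95.3 and 65.5 FPKM in Kashmiri and 130, 405 and 139 FPKM in Jersey, and the entry that joins NEU3 with SPCS2 lay between 42.4 and 74.1 FPKM. Among sialylated milk glycoproteins 4 of 9 were found. MFGE8, MUC1 and MUC15 (the last named after its values were seen) were lower at D90 than at D15 in each breed, where 18.8% (Kashmiri) and 16.9% (Jersey) of all genes were lower. MFGE8 of the fat globule membrane had 1024, 339 and 388 FPKM in Kashmiri and 280, 24.1 and 113 FPKM in Jersey, and MUC1 had 137, 43.0 and 85.0 FPKM against 45.0, 2.48 and 57.8 FPKM. CSN3 (kappa-casein) had 8174 FPKM at Kashmiri D15, 1817 FPKM at Jersey D15 and 653 FPKM at Jersey D90. It was listed at 0 at Kashmiri D90, Kashmiri D250 and Jersey D250, so no direction is given for it between days or breeds. LALBA, which with B4GALT1 forms the lactose synthase list, was listed at 0 at D15 in both breeds and had 12933 and 13031 FPKM on the later Kashmiri days and 297 and 5140 FPKM on the later Jersey days. In the paper's own list of highly expressed genes, CSN3 and LALBA have high FPKM in every group, including those listed at 0 here. The deposited values of these genes are therefore not read as levels or as changes between days. The 4 red blood cell markers found summed to at most 0.976 FPKM in any group, and 3 of them were at 0 in at least 1 group.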
